A study of Mus musculus with 4 samples.

Results

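The mitochondrial ribosomal protein genes encode the protein part of the ribosome that works inside mitochondria. They were taken as the protein-coding genes with a name starting in Mrpl (large subunit) or Mrps (small subunit) followed by a number, listed in both deposited read tables. This rule gave 77 genes, 48 named Mrpl and 29 named Mrps, of 19150 genes in both tables, and used no measured value. The mouse annotation (GENCODE M21, build GRCm38) holds 78 such protein-coding genes, and the remaining one, Mrpl53, was not analysed here. The samples are brains of C57BL/6 mouse embryos at embryonic day 13.5, with 2 knockout libraries, KO2 and KO4, and 2 wild-type libraries, WT6 and WT8. The study's title names the deleted gene family as macroH2A, a family of histone H2A variants, but the labels do not say which member was deleted, by which allele, or whether embryos were pooled. The question of the comparison was how RNA levels in the embryonic brain differ with the deletion.

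Mitochondria keep a small genome of their own, which encodes core subunits of the respiratory chain. The mitochondrial ribosome, or mitoribosome, makes those proteins, and is built from 2 ribosomal RNAs of the mitochondrial genome and a large set of proteins that are encoded in the nucleus, made in the cytosol and imported. One set of these proteins descends from bacterial ribosomal proteins, and another set is specific to mitochondria. Members that sit at the nascent chain exit tunnel, at the stalk that recruits translation factors and at the central protuberance have known places in the large subunit. Cells that depend on oxidative phosphorylation, neurons among them, need this ribosome, and inherited defects in several of its proteins cause disease in people that can include the brain.

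The libraries held between 16470090 and 18136745 counted reads, and the members took between 0.366% and 0.418% of them. H2afy, which encodes macroH2A1, was counted 1368 (KO2), 1267 (KO4), 5538 (WT6) and 5593 times (WT8). Its level was 71.9 ± 3.88 CPM (the read count scaled to library size; SD, n = 2) in the knockouts and 336 ± 20.0 in the wild types, a log2 fold change of -2.22 (SE 0.10, adjusted p = 0.00167, edgeR quasi-likelihood test), and it was the one gene called among all tested (adjusted p = 0.314 without WT6, edgeR). H2afy2, which encodes macroH2A2, had a log2 fold change of 0.08 (adjusted p = 0.799, edgeR). Xist was counted 8105 times in KO4 and 6094 in WT8 and at most 19 times in KO2 and WT6, while the Y-linked gene Eif2s3y was counted 1150 times in KO2, 697 in WT6 and 1 time each in KO4 and WT8. The libraries of a genotype thus came from different embryos, of different sex, and each deposited table pairs a KO and a WT library of the same sex, so sex and table cannot be told apart. The neural markers Sox2, Pax6, Tubb3, Neurod1 and Emx1 were present in all 4 libraries. The 4 erythroid markers (Hbb-y, Hba-x, Hba-a1 and Alas2) summed to 563.7 (KO2), 564.3 (KO4), 429.8 (WT6) and 975 CPM (WT8). Those of microglia summed to between 25.4 and 31.4 CPM, of endothelium to between 90.4 and 97.6, and of mesenchyme to between 4.4 and 6.3, and none of these markers that were measured was at 0. For the members' genes WT8 stands apart from the other 3 libraries, so fold changes without it, which rest on 1 wild-type library, are given beside the main results. The medians of gene groups without it were added after the data were seen. Whether the embryos came from separate litters is not stated, so the p-values describe the spread between these libraries, part of which may be technical.

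Members often start near the start of a gene on the opposite strand. A protein-coding neighbour on the other strand whose start lay within 1000 bases was annotated for 33 of the 77 members (42.9%), against 2196 of 15009 protein-coding genes in both tables (14.6%). Several partners also work in mitochondria. Mrps12 starts beside Sars2, the mitochondrial seryl-tRNA synthetase, Mrpl43 beside Twnk, the mitochondrial DNA helicase, Mrpl36 beside Ndufs6 and Mrpl47 beside Ndufb5, both of respiratory complex I, and Mrps27 beside Ptcd2, a pentatricopeptide protein of mitochondria. Mrps11 and Mrpl46 are both members and start beside each other. The bases between the RefSeq starts are shown for 4 of these pairs, whose partners also work in mitochondria. They come from RefSeq (GRCm38.p6), run 5′ to 3′ on the strand of the first gene named, and lie at chr7:28741822-28741967 (minus) for Mrps12 and Sars2, chr19:45006443-45006557 (minus) for Mrpl43 and Twnk, chr13:99344679-99344785 (plus) for Mrps27 and Ptcd2, and chr7:78783090-78783130 (plus) for Mrps11 and Mrpl46. GENCODE M21 places no exon in the first 2 stretches, and 27 bases of the Mrps27 and 12 of the Mrps11 stretch in an exon. Its starts differ from those of RefSeq in each of the 4 pairs. They lie 172 bases apart for Mrps12 with Sars2 and 81 for Mrps27 with Ptcd2, where the RefSeq stretches hold 146 and 107 bases. For Mrpl43 with Twnk and for Mrps11 with Mrpl46 the 5′ ends of both genes overlap in GENCODE M21, with 507 and 173 shared exon bases. Capitals mark the letters CCGGAAG or their reverse complement, the core bound by ETS factors such as the GABP complex, a regulator of nuclear genes for mitochondria.
Mrps12 and Sars2: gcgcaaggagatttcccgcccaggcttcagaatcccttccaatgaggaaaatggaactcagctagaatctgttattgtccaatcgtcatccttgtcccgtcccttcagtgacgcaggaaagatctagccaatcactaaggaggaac
Mrpl43 and Twnk: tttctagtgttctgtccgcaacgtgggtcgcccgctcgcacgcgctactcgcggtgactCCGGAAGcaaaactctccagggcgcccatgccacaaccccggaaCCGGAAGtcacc
Mrps27 and Ptcd2: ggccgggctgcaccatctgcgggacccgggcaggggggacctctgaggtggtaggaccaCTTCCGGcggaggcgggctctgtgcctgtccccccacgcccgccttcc
Mrps11 and Mrpl46: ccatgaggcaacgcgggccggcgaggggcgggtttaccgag

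The stretch between Mrpl43 and Twnk holds the ETS letters at 2 places, and the stretch beside Mrps27 holds them once. Neither the Mrps12 nor the Mrps11 stretch holds them. Such a stretch was taken for 18 members, and of those not shown only that of Mrps18c held the ETS letters. Over the wider RefSeq promoter windows (250 bases before to 50 after a start, both strands searched), 68 members had 74 windows among 32851 windows in all. The full set covers 27025 gene symbols and was not limited to protein-coding genes or to genes expressed here, unlike the members. CCGGAAG was present in 25 member windows (33.8%) against 8.86% of all windows. The YY1 letters AAGATGGCG were in 8 (10.8%) against 1.4%, and the palindrome of NRF1, a further regulator of nuclear genes for mitochondria, was in 3 (those of Mrpl32, Mrpl39 and Mrpl9; 4.05%) against 0.971%. The ETS and YY1 letters end and begin alike, and overlapped in 0 member windows. GGGCGG, bound by SP1, was in 39 member windows (52.7%) against 35.7%, the CCAAT box letters in 29 (39.2%) against 37.4%, and the TATA box letters TATAAA in 5 (6.76%) against 13.6%. Median GC content was 58.5% in member windows and 52.7% in all, and the part of base composition in these shares was not tested. These are letters found in a window and not measured binding.

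All 77 members were expressed in each embryonic brain, with between 70 and 2165 reads per gene and library. All of them passed the filter on low counts, as did 15708 genes in total. Their mean level over the 4 libraries ran from 4.865 to 118.5 CPM, and 70 of 77 lay above the median of the tested genes. Per kb of transcript (the main annotated transcript of GENCODE M21), the members' median level was 30.2 CPM per kb, against 7.13 over all genes tested, and 46 of the 77 lay within 2-fold of their own median.

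The highest level per length was that of Mrpl52, a mitochondria-specific protein of the large subunit, at 207 ± 29.8 CPM per kb (SD, n = 4 libraries). It was followed by Mrpl34, the homologue of the bacterial large subunit protein of the same number, at 145 ± 22.6, Mrpl42 at 127 ± 11.6, Mrpl20 at 118 ± 16.8 and Mrps21, a small subunit protein with a bacterial homologue, at 116 ± 6.92. Mrpl42 was above both Mrpl20 and Mrps21 in each library. The order of Mrpl20 and Mrps21 changed between libraries, so it is not set by them. The lowest levels per length were those of Mrps25 at 5.03 ± 0.533 CPM per kb, Mrpl19 at 5.18 ± 0.309 and Mrpl1 at 5.27 ± 0.198, which do not differ beyond their spread, then Mrps30 at 7.49 ± 0.565 and Mrps18c at 7.63 ± 2.21. The transcripts used for Mrps25 and Mrpl19 are 6073 and 5000 bases long. Over all their annotated exons, these genes share 4590 and 1962 bases with Nr2c2 and Gcfc2 on the opposite strand. With all exons of a gene as its length instead, 3 of the 5 highest and 3 of the 5 lowest remained the same genes.

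The family holds 3 relatives of the bacterial small subunit protein S18, and they differed in level. Mrps18a, which sits in the large subunit despite its name, was at 57.3 ± 6.41 CPM per kb, Mrps18b at 7.93 ± 0.469 and Mrps18c at 7.63 ± 2.21. The values of Mrps18b and Mrps18c overlapped across libraries, and Mrps18a was above both in each.

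**Figure D1:**
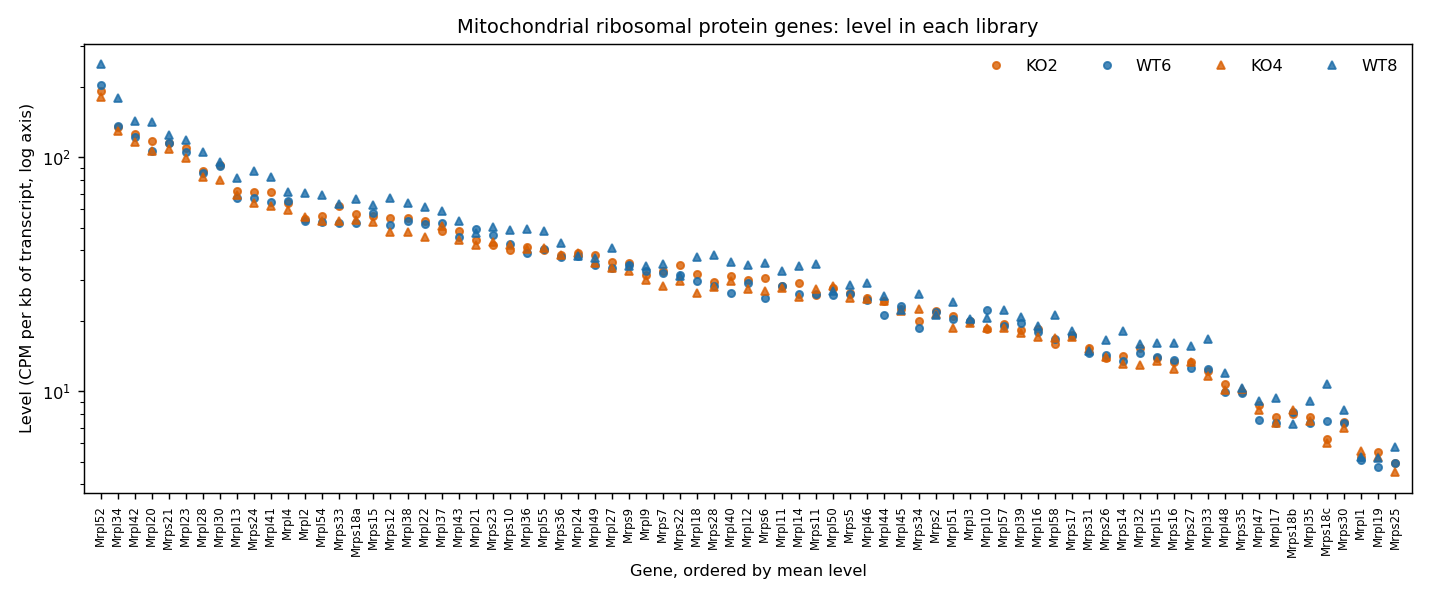
Level of each of the 77 genes in each library, in CPM per kb of transcript on a log axis, with genes ordered by their mean. Mrpl52 leads at a mean of 207 and Mrps25 is last at 5.03, and the WT8 triangle is the top point for 64 of the 77 genes.

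No mitochondrial ribosomal protein gene passed the test between knockout and wild type. Of the 77 members, 0 were higher and 0 lower in the knockouts at an adjusted p under 0.05 (edgeR quasi-likelihood test over all 15708 genes, smallest adjusted p among members 0.743), against a background of 0% called higher and 0.00637% called lower. DESeq2 and limma-voom also called 0 members. At an unadjusted p under 0.05, 1 member stood below the wild types (1.3%), against 2.26% of all genes, and 0 stood above, against 2.44% (4.7% in either direction). In bulk RNA, fewer cells with a transcript and less of it per cell cannot be told apart.

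The members' fold changes were small and mostly of one sign. The median log2 fold change was -0.12 (quartiles -0.17 and -0.07, range -0.58 to 0.11), against -0.01 over all genes tested. It was below 0 for 65 of 77 members (84.4%), against 51.1% of all genes, and above 0 for 12, against 48.9%. The 95% interval of a single member had a median half-width of 0.28 and included 0 for 76 of the 77. Both KO libraries lay below both WT libraries for 18 members (23.4%), against 19.4% of all genes, a share close to the background. The reverse, without overlap, held for 4 members (5.19%), Mrpl19, Mrpl24, Mrpl50 and Mrps31, against 20.1% of all genes. The median rested on single libraries: it was 0.0023 without WT8 and -0.23 without WT6, when 29 members had an unadjusted p under 0.05 in either direction (all genes 15.9%; 8.98% lower in the knockouts).

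**Figure D2:**
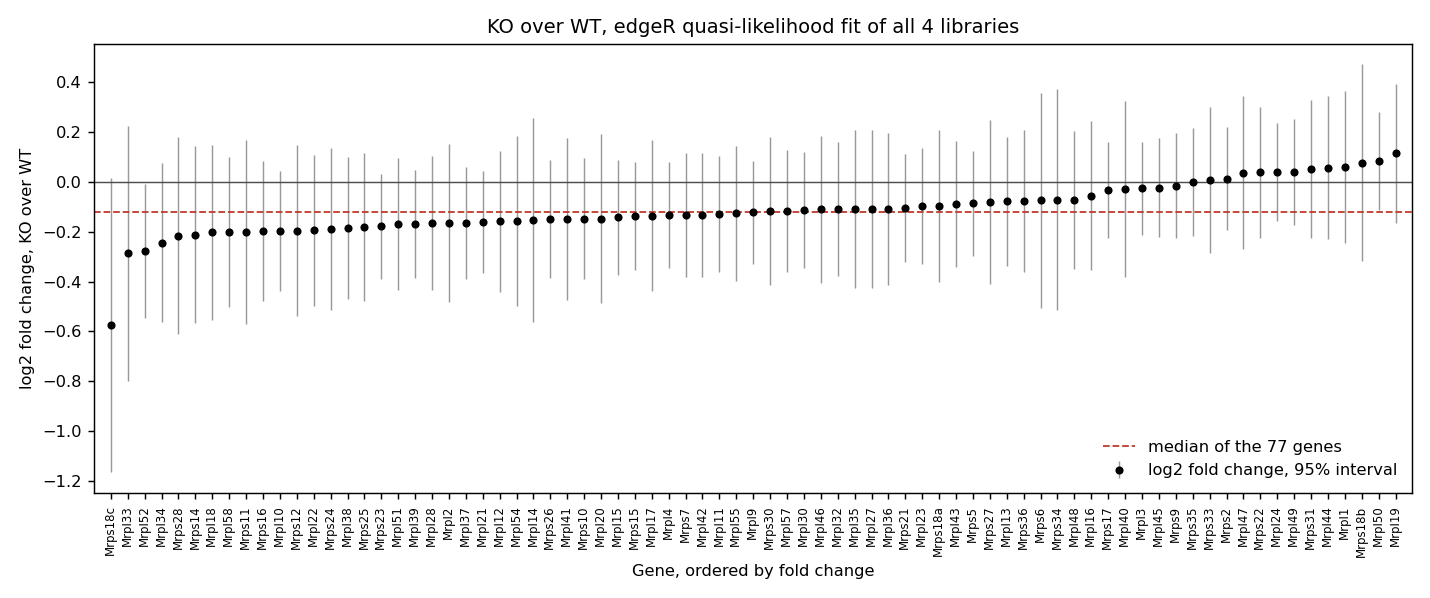
Log2 fold change of each gene, knockout over wild type, with its 95% interval from the edgeR fit, ordered by fold change. The points run from -0.58 for Mrps18c to 0.11 for Mrpl19 around a median of -0.12 (dashed), and all intervals but that of Mrpl52 include 0.

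Among small subunit genes, the smallest p was that of Mrps18c (ENSMUSG00000016833, chr5:100798627-100804471, plus strand). It was at 3.98 (KO2), 3.82 (KO4), 4.77 (WT6) and 6.89 CPM (WT8), on 70 to 110 reads, which makes it the member with the fewest. Both knockouts lay below both wild types, and the wild types differed from each other by more than WT6 did from the knockouts. Its log2 fold change was -0.58 (SE 0.25, unadjusted p = 0.054, adjusted p = 0.743, edgeR), and -0.28 without WT8. Its divergent neighbour Helq, a DNA helicase, had a log2 fold change of 0.08 (SE 0.12) and 338 to 423 reads.

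Mrps23, a mitochondria-specific protein, was at 56.0 (KO2), 57.9 (KO4), 61.7 (WT6) and 67.2 CPM (WT8), so that the groups did not overlap. Its log2 fold change was -0.18 (SE 0.09, unadjusted p = 0.082), and -0.11 without WT8. Mrps16, with a bacterial homologue, was at 34.4 (KO2), 32.1 (KO4), 34.9 (WT6) and 41.3 CPM (WT8). KO2 and WT6 were nearly level there, and WT8 stood apart, with a log2 fold change of -0.20 (SE 0.12, unadjusted p = 0.140) that was -0.068 without WT8 and -0.32 without WT6. Of the S18 relatives, Mrps18b had 8.62 (KO2), 8.95 (KO4), 8.84 (WT6) and 7.83 CPM (WT8) and is one of 2 members lowest in WT8, the other being Mrps2. Mrps18a had 50.4, 47.5, 46.1 and 58.7 CPM in the same order, with overlapping groups. Without WT8 the log2 fold changes of both changed sign, from 0.08 to -0.0037 for Mrps18b and from -0.10 to 0.091 for Mrps18a.

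Among large subunit genes, Mrpl52 (ENSMUSG00000010406, chr14:54426909-54429756, plus strand) was the one member with an unadjusted p under 0.05. It was at 80.4 (KO2), 75.9 (KO4), 85.3 (WT6) and 104 CPM (WT8). The knockout mean of 78.1 ± 3.19 CPM lay below the wild-type mean of 94.7 ± 13.4 (SD, n = 2 each). This is a log2 fold change of -0.28 (SE 0.11, 95% interval -0.55 to -0.01, unadjusted p = 0.044, adjusted p = 0.743, edgeR). Without WT8 the log2 fold change was -0.12.

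Mrpl34 was at 82.1 (KO2), 78.6 (KO4), 82.1 (WT6) and 108 CPM (WT8), which leaves WT6 level with KO2 and WT8 alone above, and its log2 fold change of -0.24 was -0.028 without WT8. Mrpl58, a peptidyl-tRNA hydrolase built into the central protuberance, also stood apart in WT8, with 761 (KO2), 806 (KO4), 750 (WT6) and 876 reads (WT8) and WT6 between the knockouts in CPM. Its log2 fold change of -0.20 was -0.024 without WT8. Of the genes with the smallest p, 4 others are among the 18 members whose knockouts both lay below both wild types (23.4%; all genes 19.4%), with log2 fold changes between -0.20 and -0.16. Mrpl10, at the base of the stalk, was at 31.6 (KO2), 32.0 (KO4), 38.0 (WT6) and 35.0 CPM (WT8) (log2 fold change -0.20, SE 0.10, unadjusted p = 0.094). Mrpl21 was at 50.5, 47.9, 56.2 and 53.8 CPM in the same order, and both genes were highest in WT6. Mrpl39 was at 41.8, 40.6, 44.8 and 47.8 CPM, and Mrpl37 at 72.4, 76.1, 78.1 and 88.4. Without WT8 the log2 fold changes were -0.25 for Mrpl10, -0.19 for Mrpl21, -0.12 for Mrpl39 and -0.069 for Mrpl37. Mrpl21 shares 117 exon bases with Ighmbp2 on the opposite strand, and the sources used here do not say whether counting used strand.

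The median log2 fold change was below 0 in each class of members with all 4 libraries, and near 0 in each without WT8. The 17 small subunit proteins with a bacterial homologue centred on a log2 fold change of -0.14, and the 9 specific to mitochondria on -0.07. Without WT8 these medians were -0.0037 and 0.039. In the large subunit the 30 with a bacterial homologue had a median of -0.13 and the 20 specific to mitochondria -0.12, which became -0.0092 and 0.0075 without WT8. Mrps36, which keeps its name but is no longer counted as a ribosomal protein and belongs to the 2-oxoglutarate dehydrogenase complex, was at -0.08, and 0.026 without WT8. By place in the large subunit, the 8 genes of the central protuberance (Mrpl18, Mrpl27, Mrpl38, Mrpl40, Mrpl46, Mrpl48, Mrpl58 and Mrps30) were all below 0, with a median of -0.11. The 4 measured genes of the stalk and its base (Mrpl10, Mrpl11, Mrpl12 and Mrpl54) were also all below 0, with a median of -0.16. Without WT8 the central protuberance had 4 of 8 below 0 and a median of 0.00063, and the stalk 3 of 4 and -0.018. Of the 7 genes at the exit tunnel (Mrpl17, Mrpl22, Mrpl23, Mrpl24, Mrpl44, Mrpl45 and Mrpl47), 4 were below 0 and the median was -0.02 (0.044 without WT8). No difference between these classes was tested.

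The libraries did not take equal parts in this pattern. WT8 was the highest of the 4 libraries for 64 of 77 members (83.1%), against 32.8% of all genes tested, and the lowest for 2 (2.6%), against 34%. KO4 was the lowest for 42 members (54.5%; all genes 26.4%), WT6 for 25 (32.5%; all genes 20.7%) and KO2 for 8 (10.4%; all genes 19%). KO2 was the highest for 7 members, against 18.4% of all genes, and KO4 and WT6 for 3 each, against 25.8% and 23%. The median deviation of a member from its mean over the 4 libraries, in log2 CPM, was 0.17 in WT8, -0.01 in KO2, -0.05 in WT6 and -0.09 in KO4. Summed over members, the level was 4311.1 CPM in WT8, 3814 in KO2, 3725.9 in WT6 and 3611.9 in KO4, so WT6 lay between the knockout libraries. The summed erythroid markers, given above, and 3 of the 4 genes were also highest in WT8 (Alas2 was highest in KO2), and their part in the members' values was not tested.

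**Figure D3:**
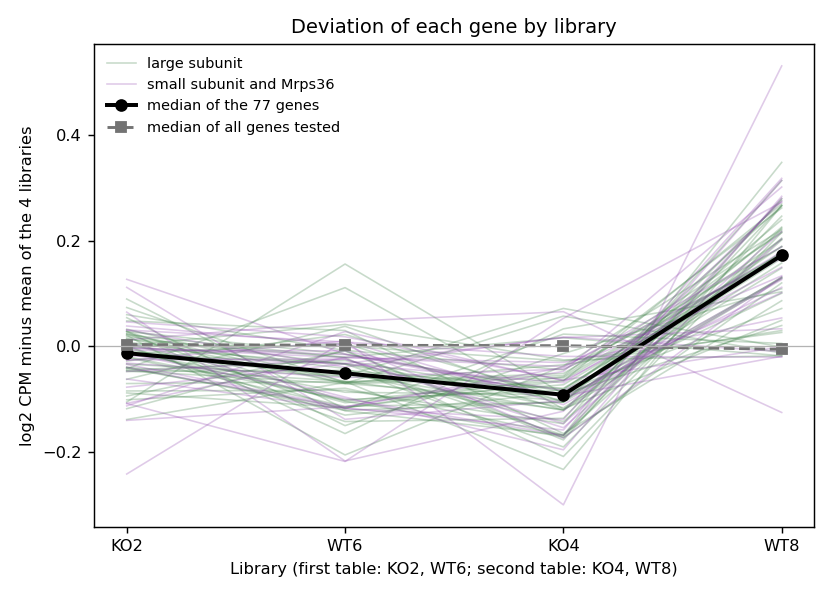
Deviation of each gene's log2 CPM from its mean over the 4 libraries (thin lines, by subunit), with the median of the 77 genes (black) and of all genes tested (grey squares). The members' median is 0.17 in WT8 and between -0.09 and -0.01 in the other 3 libraries, while the median of all genes lies between -0.0055 and 0.0035.

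Within the deposited tables, the members' ratios centred on opposite sides of 0. For KO2 over WT6 the median log2 ratio was 0.03 (quartiles -0.003 and 0.09), with 54 members above 0 (70.1%; all genes 50.2%) and 23 below (29.9%; all genes 49.8%). For KO4 over WT8 it was -0.25 (quartiles -0.35 and -0.18), with 70 members below 0 (90.9%; all genes 49.2%). The tables do not share a library, and each ratio is of 1 library to another with no replicate. Between libraries of 1 genotype, the median log2 ratio was 0.23 for WT8 over WT6, with 70 of 77 above 0, and -0.07 for KO4 over KO2, with 15 above 0. The difference between the wild-type libraries was thus about as large as that between KO4 and WT8.

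Single members show the range. Mrps6, with a bacterial homologue in the small subunit, had the largest ratio of KO2 over WT6 at a log2 of 0.28, and -0.40 for KO4 over WT8, on 472 reads in KO2, 364 in WT6, 414 in KO4 and 476 in WT8. It shares 159 exon bases with Slc5a3 on the same strand. Mrpl10 had the lowest ratio of KO2 over WT6 at -0.26, and -0.13 in the second table. Mrps18c was low in both, at -0.25 and -0.83, the latter the lowest of all members. Mrps18b had the highest ratio of KO4 over WT8 at 0.19, on 164 and 125 reads.

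**Figure D4:**
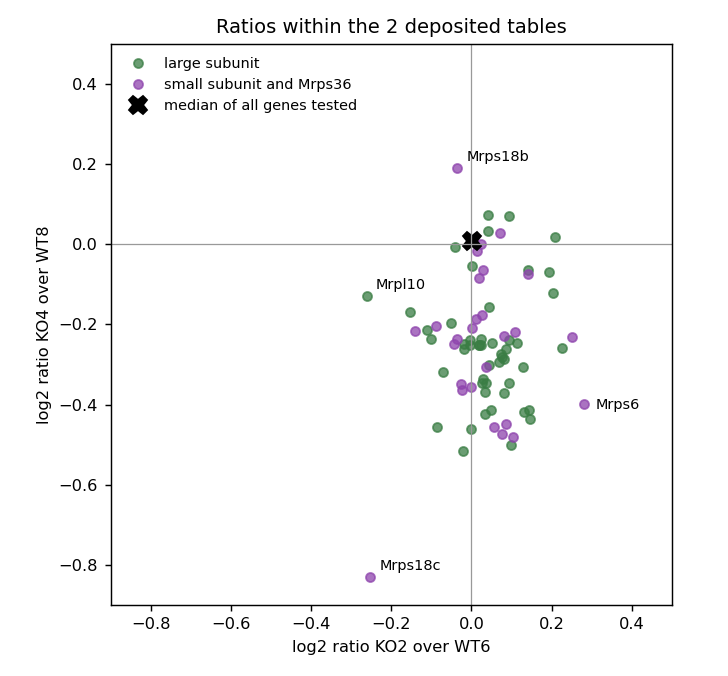
Log2 ratio of KO2 over WT6 (horizontal) against KO4 over WT8 (vertical) for each of the 77 genes, by subunit, with the median of all genes tested (cross). 54 genes lie right of 0 and 70 lie below 0; the medians are 0.03 and -0.25.

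In the authors' deposited table of KO2 and WT6, an adjusted p under 0.05 was given to 5 members higher in KO2 (6.49%; all genes 9.06%), Mrps6, Mrps33, Mrpl40, Mrpl20 and Mrpl49, and to 1 lower (1.3%; all genes 9.15%), Mrpl10. In the authors' deposited table of KO4 and WT8 it was given to 51 members lower in KO4 (66.2%; all genes 16.1%) and to 0 higher (all genes 25.2%). The authors' mark of significance was on 0 of the 77 in either deposited table, against 1.37% of all genes higher and 0.554% lower in the first and 3.02% and 2.05% in the second. The authors' deposited log2 ratios had a median over members of 0.05 in the first pair and -0.19 in the second, against 0.01 and 0.07 over all genes. Such p-values compare 2 libraries and do not include the spread between embryos, and no source used here gives the test behind them.

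The ratio of KO4 over WT8 went with transcript length in all genes. The members' transcripts are short, between 418 and 7300 bases with a median of 1316. Among members under 1 kb (24 genes) the median log2 ratio of KO4 over WT8 was -0.38, against -0.35 for all 1608 tested genes of that length. From 1 to 2 kb (28 members) it was -0.22 against -0.15 for 3232 genes. From 2 to 4 kb (16 members) it was -0.25 against 0.02 for 6128 genes, and at 4 kb or more (9 members) -0.25 against 0.14 for 4719. The median of the shortest members was thus near that of all tested genes of their length, and the medians of the longer ones lay below. The bins of all genes include the members and were not matched for level. Under 1 kb the median level was 44.4 CPM for members and 4.16 CPM for all genes. WT8 was the highest library for 100% of the members under 1 kb, against 60.3% of all genes of that length, and for 88.9% of those of 4 kb or more, against 16.2%. The fold change over all 4 libraries had medians of -0.14, -0.12, -0.11 and -0.09 from the shortest to the longest members, against -0.14, -0.07, -0.0010 and 0.06 over all genes. The part of length in the members' values was not tested beyond these bins.

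**Figure D5:**
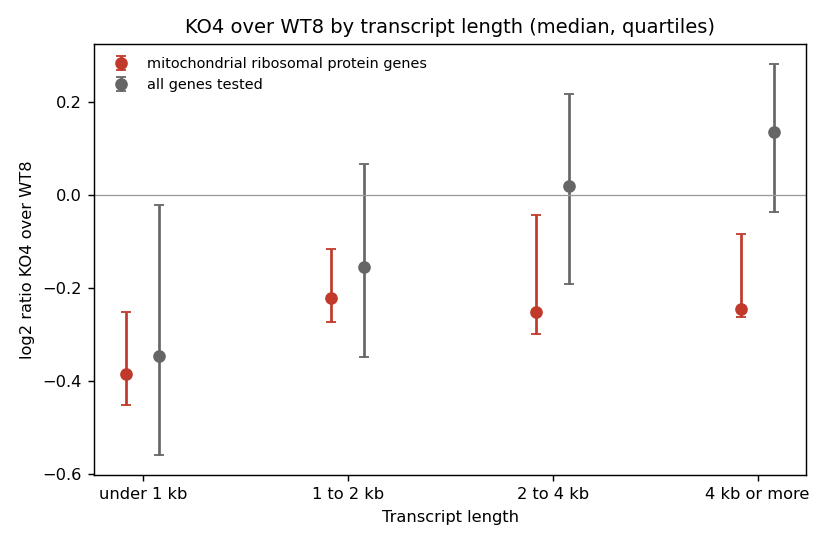
Log2 ratio of KO4 over WT8 by transcript length, median (points) and quartiles (bars), for the mitochondrial ribosomal protein genes (red) and all genes tested (grey). Under 1 kb the medians are -0.38 and -0.35; at 4 kb or more they are -0.25 and 0.14.

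The related gene groups that share most with the members had medians of the same signs between these libraries. The 76 cytosolic ribosomal protein genes centred on a log2 fold change of -0.21, with 75 below 0. Their median ratio was 0.03 in the first table and -0.46 in the second. The 80 nuclear genes of respiratory chain subunits had a median of -0.18, with 74 below 0, and median ratios of 0.05 and -0.40. WT8 was the highest library for 98.7% and 90% of them. None of their genes was called. Without WT8 the medians were -0.034 for the cytosolic ribosomal proteins, with 58 of 76 below 0, and -0.0070 for the respiratory chain, with 45 of 80 below 0. Differences between these groups and the members were not tested.

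Mitoribosomal proteins with other names gave mixed values, and 0 of 5 passed the test. Ptcd3, a pentatricopeptide protein of the small subunit, was at 55.1 (KO2), 56.3 (KO4), 47.2 (WT6) and 44.3 CPM (WT8). Both knockouts lay above both wild types, with a log2 fold change of 0.28 (SE 0.09, unadjusted p = 0.014, adjusted p = 0.743, edgeR), and 0.24 without WT8. Chchd1, of the small subunit, was at 72.4, 67.6, 75.9 and 94.7 CPM in the same order, with a log2 fold change of -0.28 (SE 0.12), and -0.11 without WT8. Dap3, the GTP-binding protein of the small subunit, was at 94.6, 105, 105 and 103 CPM, with overlapping groups. Aurkaip1 and Gadd45gip1 had log2 fold changes of -0.13 and -0.20, and of 0.053 and -0.061 without WT8.

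The other genes of mitochondrial translation were not called in either direction, and their medians differed in sign. Of 16 listed translation factors 14 were tested, with a median log2 fold change of -0.02 (-0.092 without WT8), and 0 passed. Guf1, a translational GTPase, was at 0.24 (SE 0.09) and Tsfm, the exchange factor of the elongation factor Tufm, at -0.23 (SE 0.11), with groups that did not overlap in either. The 30 assembly factors had a median of -0.10, with 21 below 0 and 0 passing (-0.081 and 19 below 0 without WT8). Rcc1l, an assembly factor of the large subunit, was at 23.6 (KO2), 21.7 (KO4), 31.0 (WT6) and 28.2 CPM (WT8). Its log2 fold change was -0.39 (SE 0.12, unadjusted p = 0.016, adjusted p = 0.743, edgeR), and the log2 ratio was -0.39 in the first table and -0.38 in the second. Mpv17l2, also an assembly factor, was at -0.33 (SE 0.13), with log2 ratios of -0.30 and -0.37. Without WT8 the log2 fold changes were -0.45 for Rcc1l, -0.40 for Mpv17l2, 0.22 for Guf1 and -0.15 for Tsfm.

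The 17 mitochondrial aminoacyl-tRNA synthetases had a median of 0.02 (-0.039 without WT8) and 0 passed. Yars2 was at a log2 fold change of 0.33 (SE 0.13) and Fars2 at -0.25 (SE 0.12), and without WT8 they were at 0.26 and -0.28. Among 16 genes of mitochondrial transcription and its nuclear regulators the median was 0.06 (0.048 without WT8) and 0 passed. Gabpb2, a subunit of the GABP complex, was at 0.30 (SE 0.11), and Polrmt, the mitochondrial RNA polymerase, at -0.21 (SE 0.08), and without WT8 they were at 0.31 and -0.19. The mitochondrial ribosomal RNA of the small subunit, mt-Rnr1, was at 361 (KO2), 428 (KO4), 258 (WT6) and 394 CPM (WT8), with overlapping groups and a log2 fold change of 0.28 (SE 0.20, adjusted p = 0.743, edgeR). That of the large subunit, mt-Rnr2, was at 367, 510, 286 and 436 CPM, with a log2 fold change of 0.28 (SE 0.22). Without WT8 both stood higher in the knockouts, at a log2 fold change of 0.62 each, in a fit with 1 wild-type library. The median of the 2 was 0.0034 without WT6, so the difference rests on which wild-type library is used.

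Of the genes that start within 1000 bases of a member's start on the opposite strand, 30 tested partners are not members themselves. They centred on a log2 fold change of -0.09 (0.0050 without WT8) and a KO4 over WT8 log2 ratio of -0.12, beside -0.25 for the members. Their median log2 ratio was -0.02 for KO2 over WT6, beside 0.03 for the members, and 0.01 for WT8 over WT6, with 15 of 30 above 0, beside 0.23 and 70 of 77. WT8 was the highest library for 46.7% of them, against 32.8% of all genes and 83.1% of members. No test of these differences was run. Members with and without a divergent partner had the same median for KO4 over WT8, -0.25. Sars2 had a log2 ratio of -0.40 for KO4 over WT8 beside -0.48 for Mrps12, and Ptcd2 -0.25 beside -0.23 for Mrps27. Tcp1, a subunit of the cytosolic chaperonin, had 0.58 beside -0.50 for Mrpl18, and Twnk had 0.26 beside -0.26 for Mrpl43. Exon bases were shared with some other gene by 32 members, on the opposite strand by 27 of them. Their median log2 fold change was -0.11, against -0.13 for the 45 that share none.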

How the data were processed

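RNA-seq of 4 libraries (2 KO, 2 WT) was used. The authors deposited 2 tables, KO2 with WT6 and KO4 with WT8, each with whole-number read counts per gene, not normalized, per the file headers. The authors also deposited a CPM per library (a count of 0 replaced by a small positive CPM, as found from the values). For KO over WT the deposited columns hold a fold change (ratio), the same in log2, and p-values before and after adjustment, per the file headers. TopHat2 2.0.12, Bowtie2 2.2.3, HTSeq 0.6.0 and the build mm9 are listed in the submitters' processing notes, with no role, but the positions in the tables equal GENCODE M21 on GRCm38 for 91.2% of genes and for 71 of 77 members, so positions are given on GRCm38.

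The tables were joined on the gene identifier, which left 19150 genes; 1103 and 1274 genes are in 1 table alone. Their counts were fitted in R 4.3.3 with edgeR 4.0.16 (TMM, factors 0.971 to 1.01; filterByExpr, 15708 genes; quasi-likelihood F-test, genotype as the only term; Benjamini-Hochberg over all of them; threshold 0.05). This leaves 2 residual degrees of freedom, which edgeR moderates over genes. CPM values are scaled by TMM, log2 ratios of 2 libraries use a prior count of 2, and levels per kb use the APPRIS principal transcript. The script was tested on simulated counts. Alternatives were edgeR's other scalings, no filter, DESeq2 1.42.0, voom in limma 3.58.1, the deposited pair as a term, and leaving out each library.

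The members and gene lists were chosen with earlier results of these data known. Members named are the 10 with the smallest p, the 5 highest and 5 lowest per kb, the Mrps18 relatives, the extremes of each pair's ratio and, of each pathway list, the 2 genes with the smallest p (all 5 for the proteins under other names); other genes were named after their values were seen. The family's pseudogenes Mrpl23-ps1, Mrpl48-ps and Mrps36-ps1 have at most 50 reads in a library and were not counted as members; reads shared with them cannot be told apart.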

Additional observations from a re-analysis of the deposited data

How the results depend on the processing

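The members' count of 0 called higher and 0 called lower held under every alternative run: edgeR's RLE and upper quartile scaling, no filter on low counts, DESeq2, limma-voom, the deposited pair as a further term, and leaving out each library. Their median log2 fold change stayed between -0.13 and -0.11 under the settings that keep all 4 libraries. Leaving out 1 library gave values from -0.23 (without WT6) to 0.0023 (without WT8, when 39 members were above 0). Over all genes, the 1 call became 4 with DESeq2 and 2 with the deposited pair, and between 0 (without WT6) and 104 (without WT8) with 1 library left out; without KO4 it was 2. Without WT6, H2afy kept its log2 fold change of -2.29 but had an adjusted p of 0.314 (edgeR).

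No gene named by the rules given above changed sign or its side of the threshold under a setting that keeps all 4 libraries. The genes named outside those rules are not covered by this statement. With 1 library left out, the log2 fold changes of Mrpl20 (-0.34 to 0.081), Mrps18a (-0.26 to 0.091), Mrps18b (-0.0037 to 0.16), Mrps6 (-0.30 to 0.20) and Aurkaip1 (-0.30 to 0.053) changed sign without WT8, the other end of each range being without WT6. Mrps6 (0.015 without KO4) and Dap3 (-0.13 to 0.032, the latter without KO2) did so too. Mrps36, named outside those rules, went from -0.08 to 0.026 without WT8. Without WT8, mt-Rnr1 and mt-Rnr2 were both at 0.62, beside 0.28 with all 4 libraries. The cause was not tested. These fits hold 1 library of a genotype, whose spread is assumed to be like that of the others. No paired analysis was possible by replicate number because the groups share none (2 and 4 against 6 and 8); the deposited pair stands in for it and changed no call among members. With 2 libraries per genotype the interval of a member, a half-width of 0.28 in the median, is wider than most of the fold changes.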
